A study of Mus musculus with 6 samples.

Results

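Described here are 7 genes of inflamed vessels and of the acute-phase response, chosen by symbol: the endothelial adhesion genes Sele, Selp, Icam1 and Vcam1 and the acute-phase genes Lcn2, Serpina3n and Saa3. Each gene is read from a probe set annotated to its symbol alone, and 6 of the 7 have 1 such probe set, out of 19938 genes on the array. Selp has none and is not analysed here. Gene expression was measured in 6 hearts of mice aged 6 months (postnatal day 180), each on 1 Affymetrix Mouse Gene 1.0 ST array, in a study of hearts whose vessels lack Id1 and Id3. Both are proteins that pair with E proteins, a class of transcription factors, and stop them from binding DNA.

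The arrays fall into 5 groups. One array is an Id conditional knockout (Id cKO) heart treated with mouse recombinant IGFBP3, a carrier protein of insulin-like growth factors, and 1 is an untreated Id cKO heart that served as its control; the design text calls both of these hearts incubated, and their alleles are labelled only as Id cKO. One array is an Id cKO heart with Tie2Cre, an Id1 locus that is floxed on 1 allele and null on the other, and Id3 lost on both. The 2 Id control arrays differ in genotype. The first, called the Id3-null Id control here, carries 1 floxed and 1 wild-type Id1 allele and no functional Id3, with no Cre in its label, and the other, the Id1-null Id control, carries Tie2Cre, lacks Id1 on both alleles and keeps 1 intact Id3 allele. One array is wild type (WT). Tie2Cre is active in endothelial and blood cells, so a floxed Id1 allele stays in heart muscle, whereas a null allele is lost in every cell. Apart from Id control, each group is 1 array, and whether a sample pools animals is not stated. A p-value here thus rests on the spread between the 2 Id control arrays. Their genotypes differ, so they are neither technical repeats of 1 sample nor replicates of 1 genotype. That spread holds their differences in genotype and in the date code of their labels.

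At rest, vessel walls hold few leukocyte adhesion molecules. Cytokines such as tumour necrosis factor and interleukin 1 act on endothelial cells through NF-kB and switch on E-selectin and P-selectin, which let leukocytes roll, and ICAM-1 and VCAM-1, which bind leukocyte integrins and hold the cells firmly. The same cytokines and interleukin 6, which signals through STAT3, raise acute-phase proteins, mainly in liver and also in other tissues.

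Promoters of the genes that stood highest in the incubated hearts are shown first, since these genes moved together. The sequences are the 250 bases before a single RefSeq start of transcription of each gene (GRCm38.p6), in a table that matched 6 of the 7 genes by symbol. Vcam1 is named only. Those printed lie at chr1:164047984-164048233 (plus strand), chr9:21015690-21015939 (plus strand), chr2:32387740-32387989 (minus strand) and chr12:104406458-104406707 (plus strand). The windows of Sele and Saa3 lie inside the annotated span of the gene, and that of Serpina3n overlaps it. Other starts of these genes were not read. Capitals mark GGANNTTCC on either strand, a short form of the site that NF-kB proteins bind, chosen after the sequences had been read.
Sele: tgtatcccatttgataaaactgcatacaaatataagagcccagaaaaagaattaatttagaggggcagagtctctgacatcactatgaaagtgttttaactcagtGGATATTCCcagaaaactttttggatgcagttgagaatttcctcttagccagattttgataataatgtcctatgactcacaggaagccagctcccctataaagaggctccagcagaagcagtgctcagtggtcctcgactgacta
Icam1: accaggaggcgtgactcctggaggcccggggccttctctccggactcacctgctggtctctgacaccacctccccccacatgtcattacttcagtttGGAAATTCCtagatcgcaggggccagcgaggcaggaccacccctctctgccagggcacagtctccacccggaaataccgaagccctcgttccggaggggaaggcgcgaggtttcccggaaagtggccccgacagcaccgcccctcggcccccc
Lcn2: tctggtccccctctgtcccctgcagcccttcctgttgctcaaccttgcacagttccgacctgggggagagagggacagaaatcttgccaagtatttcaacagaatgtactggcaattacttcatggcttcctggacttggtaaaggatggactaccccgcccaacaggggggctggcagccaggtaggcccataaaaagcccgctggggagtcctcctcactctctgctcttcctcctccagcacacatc
Serpina3n: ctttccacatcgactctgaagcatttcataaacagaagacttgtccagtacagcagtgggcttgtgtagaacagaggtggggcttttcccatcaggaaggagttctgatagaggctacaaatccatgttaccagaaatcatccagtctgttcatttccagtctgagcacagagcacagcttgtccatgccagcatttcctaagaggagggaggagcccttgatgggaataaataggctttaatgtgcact
The motif GGANNTTCC stood 145 bases upstream of the Sele start, as GGATATTCC, and 153 bases upstream of the Icam1 start, as GGAAATTCC, and 3.59% of 32851 promoter entries hold it in the same length. The windows of Selp, Lcn2, Serpina3n and Saa3 hold none. TTCNNNGAA, a form of the STAT site, is found in the Sele window, where it overlaps the capitals, and in the Icam1 window, and in 7.02% of all entries. The fuller NF-kB consensus is in 3.90% of all entries and in none of the 4 windows shown. The E-box CANNTG, bound by E proteins, is in 66.2% of all entries. It occurs at 2 places in each of the Sele and Icam1 windows and at 0 in those of Lcn2 and Serpina3n. These are matches of letters and say nothing of binding in these hearts.

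The arrays were deposited on 2 scales. The medians of the incubated pair were 4.45 and 4.51 (log2) and those of the other 4 arrays 5.73 to 5.83, so levels were compared across these sets only after quantile normalization, which gives all arrays the same distribution, and within a set as deposited. The labels carry 3 date codes of unstated meaning: the incubated pair has its own, Id cKO, the Id1-null Id control and WT share another, and the Id3-null Id control has one of its own. Incubation, date code and array set therefore cannot be told apart. After quantile normalization, Id3 lay at 4.24 to 5.03 on the 4 arrays labelled without functional Id3 or as Id cKO and at 6.90 and 6.81 in the Id1-null Id control and WT. Id1 lay at 7.68 and 7.79 in the Id3-null Id control and WT and at 6.00 to 6.51 elsewhere. The Y-linked Eif2s3y was at 7.85 and 7.01 in the incubated pair and 7.63 in WT, and at 2.48 to 2.81 in the other hearts. The cardiomyocyte markers had levels of 11.33 to 13.60, and Myl7, a myosin light chain of atrial muscle, was at 11.90 in the Id1-null Id control and at 4.76 to 5.56 elsewhere.

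The largest differences of these genes lay between the incubated pair and the other hearts. Sele, Icam1, Vcam1, Lcn2 and Serpina3n were each at least 2-fold higher on both incubated arrays than on any of the 4 others, whether IGFBP3 had been given or not, while Saa3 was not. That makes 5 of the 6 measured genes, against 1.47% of the 10203 genes compared. This comparison was chosen with the data in view, and the genes with earlier results of these data known. The contrast with 1.47% is therefore a description and no test. A gene entered a comparison if its mean in the higher group reached 6 on the log2 scale. Sele passed that limit through the incubated pair alone, and Saa3 did not reach it.

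Sele encodes E-selectin, made almost only by activated endothelial cells. Its quantile-normalized log2 level was 8.51 in the IGFBP3-treated and 9.26 in the untreated incubated heart, against 5.64 in Id cKO, 5.56 and 5.55 in the Id3-null and Id1-null Id controls and 5.31 in WT. The incubated pair stood apart and the 4 other arrays lay within a narrow band. Relative to the Id cKO heart, Sele was 12.3-fold higher in the untreated and 7.31-fold higher in the treated heart. It stood at the 94.2 percentile of all genes on the untreated incubated array and at the 46.1 percentile on the Id cKO array. In the comparison of the untreated incubated heart with Id cKO, also chosen with the data in view, 5 of the 6 genes were over 2-fold higher. Of the 10239 genes compared, 4.97% were. Here too Sele reached the limit for comparison only through the incubated array, and Saa3 did not reach it.

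Icam1 encodes an adhesion molecule that binds beta2 integrins of leukocytes and is present at a low level on resting endothelium. It was at 8.54 and 8.85 in the treated and the untreated heart, against 6.62 in Id cKO, 6.93 and 7.01 in the Id3-null and Id1-null Id controls and 6.84 in WT. Vcam1 encodes the vessel-wall ligand of the integrin alpha4beta1. It was at 8.78 and 9.15 in the treated and the untreated heart, against 6.43 in Id cKO, 6.77 and 6.97 in the Id3-null and Id1-null Id controls and 6.51 in WT. In both genes the lowest array was Id cKO, so the gap to the untreated incubated heart, also labelled Id cKO, was 4.69-fold for Icam1 and 6.59-fold for Vcam1.

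Lcn2 encodes lipocalin 2, which binds bacterial siderophores and is released by neutrophils and by stressed epithelia and other cells. It was at 8.39 and 9.15 in the treated and the untreated heart, against 6.66 in Id cKO, 5.74 and 6.65 in the Id3-null and Id1-null Id controls and 6.39 in WT. Serpina3n encodes a secreted serine protease inhibitor, related to human antichymotrypsin. It was at 10.28 and 10.90 in the treated and the untreated heart, against 8.06 in Id cKO, 6.43 and 7.74 in the Id3-null and Id1-null Id controls and 7.27 in WT. Both acute-phase genes shared the same order of arrays, with the untreated heart highest and the Id3-null Id control lowest. Serpina3n also varied most among the 4 other arrays, and the untreated heart was 7.14-fold above Id cKO, at the 98.9 percentile of its array.

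Saa3 encodes a serum amyloid A protein that is made outside the liver, in macrophages and fat among others. It was at 3.81 and 3.69 in the treated and the untreated heart, against 4.21 in Id cKO, 4.54 and 4.06 in the Id3-null and Id1-null Id controls and 3.97 in WT. It thus stayed in the lowest 25.8% of genes on every array, and the incubated pair was, if anything, lowest.

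**Figure D1:**
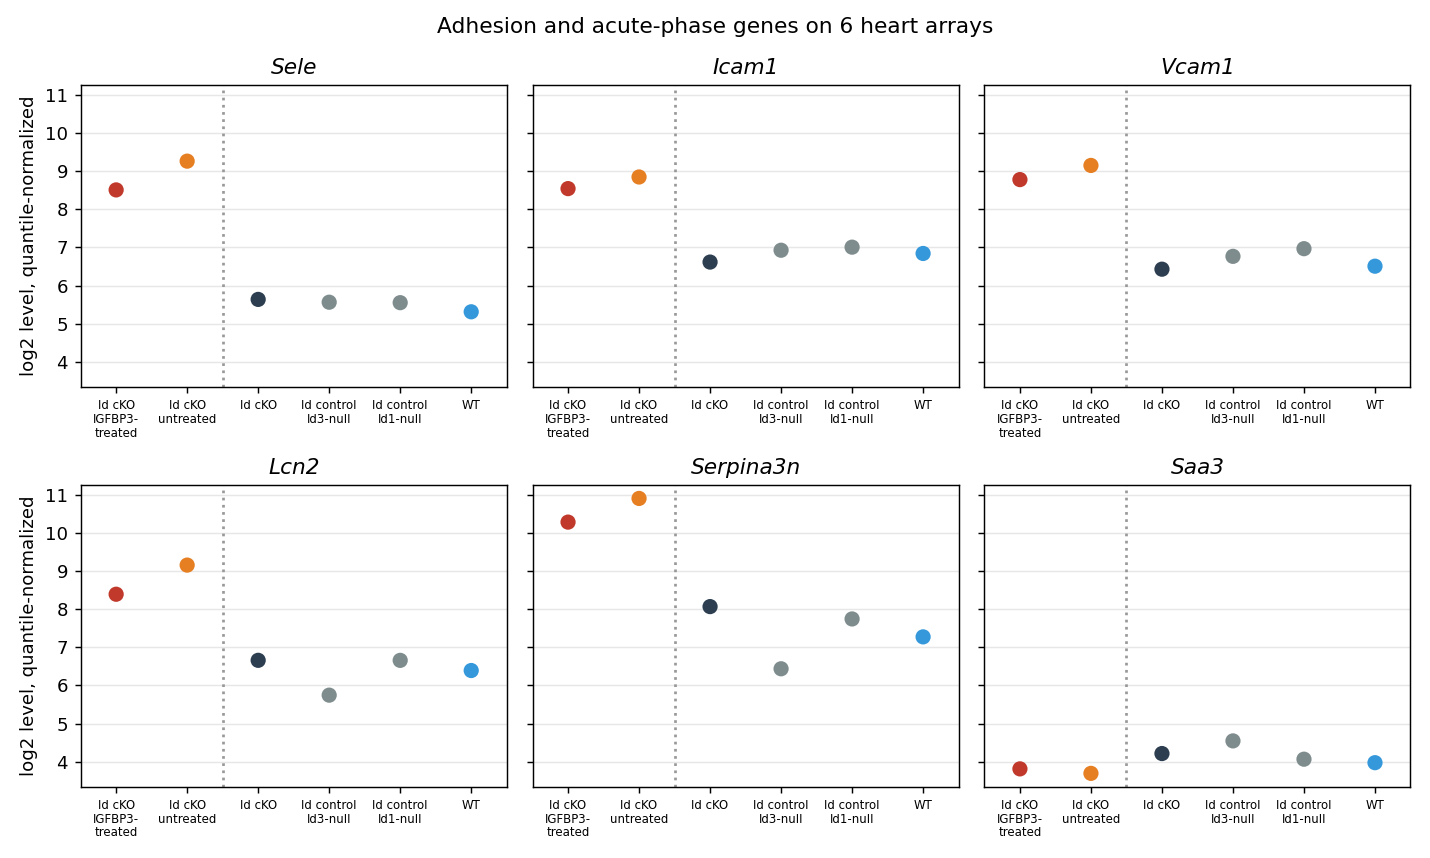
Quantile-normalized log2 level (vertical axis) of the 6 genes on each of the 6 arrays (horizontal axis), 1 point per array; the dotted line parts the incubated pair from the other arrays. In 5 panels both incubated points stand above the other 4, while Saa3 lies between 3.69 and 4.54 on every array.

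Tested in limma against the 2 Id control arrays, Icam1, Vcam1, Lcn2 and Serpina3n were higher in the incubated pair. Like the comparison of the pair with the 4 others, this contrast was chosen with the data in view. Its adjusted p-values therefore set the gap against the spread of the controls and are no independent test of the pattern. The log2 difference was 1.73 ± 0.11 for Icam1 and 2.10 ± 0.13 for Vcam1 (limma SE), with adjusted p of 0.00729 and 0.00675. It was 2.57 ± 0.33 for Lcn2 and 3.50 ± 0.46 for Serpina3n, with adjusted p of 0.014 and 0.0143. Sele differed by 3.33, given as a description with no test, since it entered the comparison only through the arrays where it is high. The same limit called 16.0% of 10251 genes higher and 18.9% lower. Over the 8953 genes whose means reached 6 in both groups, the shares were 14.3% and 17.7%, so passing the limit says little about these genes in particular. The median over all 6 genes was 2.33, beside -0.05 over all genes on the array. The fit has 1 residual degree of freedom, from the Id control arrays, and every other array is assumed to vary as they do. In bulk tissue, more cells that make a gene and more RNA per cell cannot be told apart.

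The 3 hearts labelled Id cKO did not behave as one group. After quantile normalization, all of them lay above both Id controls and WT for Sele, Lcn2 and Serpina3n, and 14.0% of 10099 genes did the same. Sele entered this comparison only through the Id cKO arrays. For Lcn2 the Id cKO array cleared the Id1-null Id control by 0.0011 on the log2 scale, and for Icam1 and Vcam1 the Id cKO array was below all 3 other hearts. With Id cKO and the untreated heart averaged against Id control, limma called Icam1 (0.76 ± 0.11, adjusted p = 0.0455) and Vcam1 (0.92 ± 0.13, 0.043), where 4.31% of 10080 genes passed as higher. Lcn2 (1.70 ± 0.33) and Serpina3n (2.39 ± 0.46) had adjusted p of 0.0543 and 0.0537. Sele differed by 1.89, again without a test. These averages join an incubated array far above the controls with an Id cKO array near or below them: for Sele the Id cKO array was 0.07 above the higher control, and for Icam1 it was at 6.62, below controls at 6.93 and 7.01.

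IGFBP3-treated and untreated hearts share a scale and a date code, so they were compared as deposited. All 5 of these genes were lower in the treated heart, none by 2-fold, a limit that 1.30% of 7474 genes passed. Sele was at 7.72 in the treated and 8.40 in the untreated heart, and Lcn2 at 7.61 and 8.29, differences of -0.68 and -0.69. Serpina3n was at 9.48 in the treated and 10.09 in the untreated heart, a difference of -0.62. These 3 genes were thus over 1.5-fold lower, as were 6.74% of the genes. Vcam1 was at 7.98 in the treated and 8.29 in the untreated heart (-0.31), and Icam1 at 7.75 and 8.00 (-0.25). Saa3, at 2.97 in the treated and 2.88 in the untreated heart, differed by 0.08. The median of the 6 genes was -0.46, beside -0.04 for all genes, and 45.1% of the genes compared were lower in the treated heart by any amount. With 1 array a group, these differences have no replicate check.

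**Figure D2:**
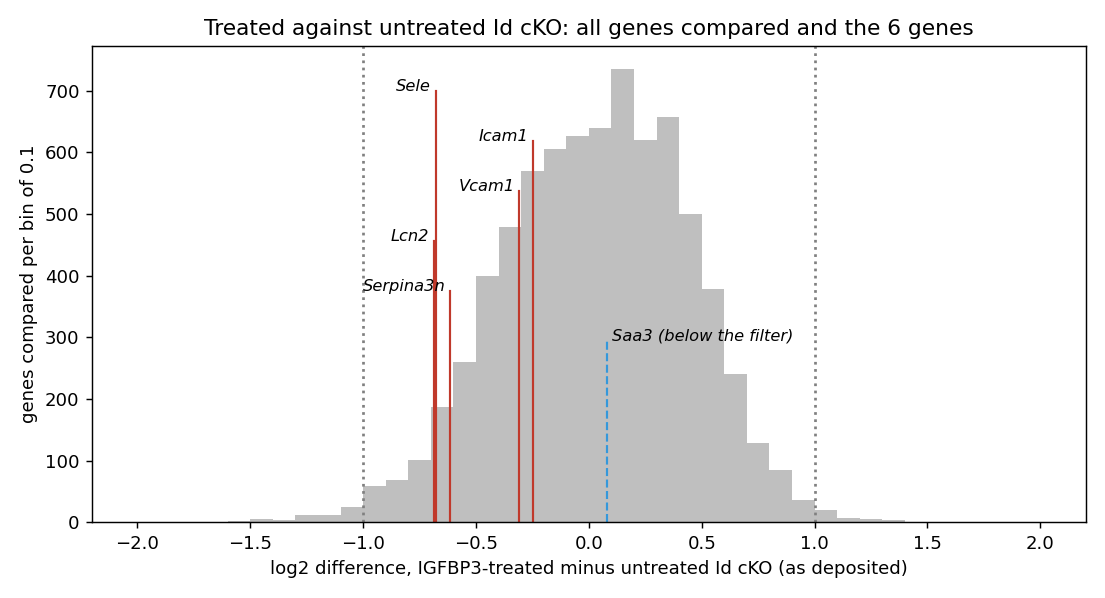
Number of genes (vertical axis) by log2 difference, IGFBP3-treated minus untreated Id cKO as deposited (horizontal axis, bins of 0.1), for the 7474 genes compared; lines mark the 6 genes, their heights carry no value, and dotted lines mark 2-fold. Sele, Lcn2 and Serpina3n sit between -0.69 and -0.62, left of the bulk of genes, and inside the 2-fold limits.

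Outside the incubated pair, Id loss came with no called difference in any of these genes. Between Id cKO and Id control, as deposited, 0 of the 6 genes were 2-fold from both control arrays, where 1.12% of 11310 genes were, and 0 passed limma, where 2 genes (0.0177%) passed as higher and 1523 (13.5%) had an unadjusted p under 0.05. Sele was at 6.06 in Id cKO and 5.96 ± 0.02 in Id control (SD, n = 2). Its difference of 0.11 is given with no test, since Sele reached the limit for comparison only through the Id cKO array. Icam1 was at 7.03 in Id cKO and 7.39 ± 0.07 in Id control, and Vcam1 at 6.85 in Id cKO and 7.29 ± 0.16 in Id control. Both genes were below each of the control arrays, with differences of -0.36 ± 0.14 and -0.44 ± 0.17 (limma SE) and adjusted p of 0.403 and 0.377.

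Lcn2 and Serpina3n in Id cKO were set beside control arrays that lay far apart. Lcn2 was at 7.07 in Id cKO, against 6.14 in the Id3-null and 7.06 in the Id1-null Id control. Serpina3n was at 8.45 in Id cKO, against 6.83 in the Id3-null and 8.18 in the Id1-null Id control. The Id cKO array was thus the higher one against each control, but against the Id1-null control, which shares its date code, the differences were 0.01 for Lcn2 and 0.26 for Serpina3n. Against the Id3-null control they were 0.93 and 1.62. The averages were 0.47 ± 0.41 and 0.94 ± 0.58 (limma SE), with adjusted p of 0.669 and 0.551. Saa3 was at 4.67 in Id cKO, against 4.98 in the Id3-null and 4.44 in the Id1-null Id control, and was too low to be tested.

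Against WT, which shares the date code of Id cKO but not its pattern of Eif2s3y, 0 of the 6 genes were 2-fold apart, where 3.17% of 11478 genes were. The deposited level of Serpina3n was 8.45 in Id cKO and 7.62 in WT (0.82), the widest gap of the 6. Lcn2 was at 7.07 in Id cKO and 6.78 in WT (0.29), and Sele at 6.06 in Id cKO and 5.80 in WT (0.26). Icam1 was at 7.03 in Id cKO and 7.21 in WT (-0.18), Vcam1 at 6.85 and 6.89 (-0.05) and Saa3 at 4.67 and 4.46 (0.20). The median of the 6 genes was 0.23, beside -0.03 for all genes.

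Between Id control and WT, 0 of the 6 genes were 2-fold apart on both arrays, where 0.202% of 11407 genes were, and limma called 0 genes on the whole array, with 828 (7.26%) at an unadjusted p under 0.05. Vcam1 was higher on both control arrays, at 7.17 in the Id3-null and 7.40 in the Id1-null Id control, against 6.89 in WT, a difference of 0.39 ± 0.17 (limma SE) with adjusted p = 0.629. Icam1 was at 7.33 and 7.44 in the same controls, against 7.21 in WT (0.18 ± 0.14, adjusted p = 0.715). Lcn2 and Serpina3n went opposite ways on the control arrays. Relative to WT, Lcn2 was at -0.63 in the Id3-null and 0.28 in the Id1-null Id control, and Serpina3n at -0.79 and 0.56, so their means of -0.18 and -0.12 describe neither array.

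**Figure D3:**
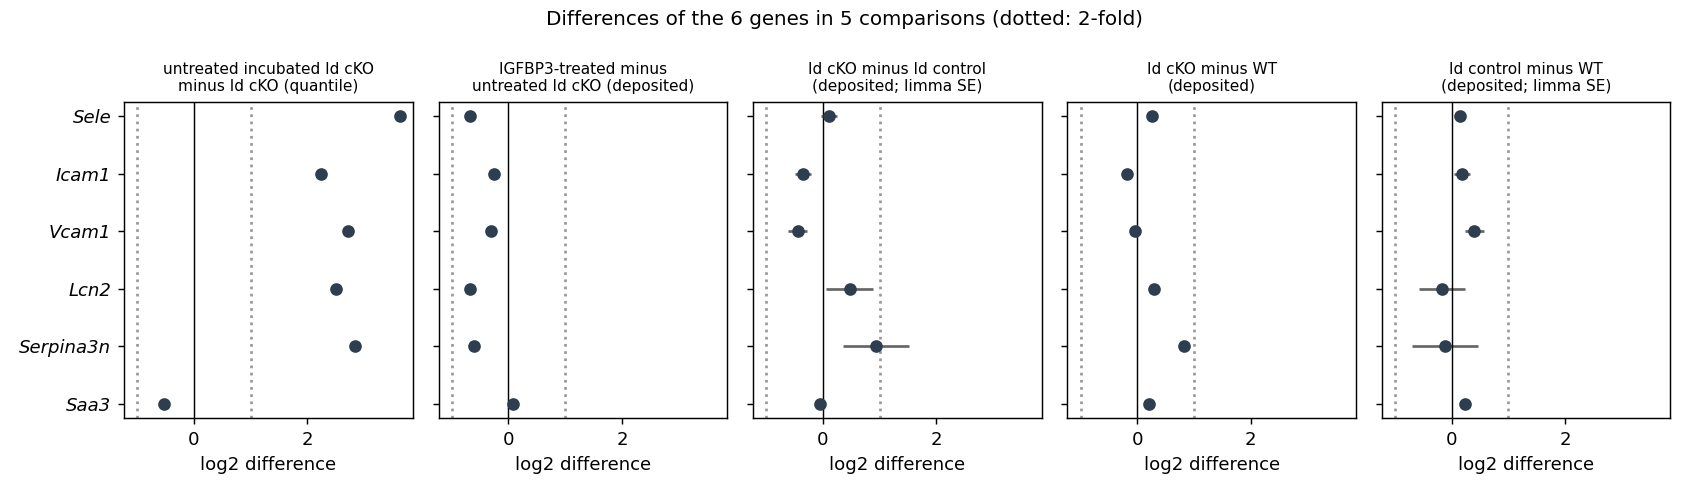
Log2 difference (horizontal axis) of each of the 6 genes (rows) in 5 comparisons, with limma SE as bars where limma was fitted and a control group of 2 arrays exists; dotted lines mark 2-fold. Points past 2-fold appear in the panel of untreated incubated minus Id cKO alone, where Sele is at 3.62 and Icam1, Vcam1, Lcn2 and Serpina3n lie between 2.23 and 2.84.

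Genes that act upstream of these or beside them were read from lists of pathway members and counted in the same limma comparison of the incubated pair with Id control. Of 19 measured cytokines and receptors, 14 were compared. Of these, 7 were called higher and 1 lower, beside 16.0% and 18.9% of all genes compared. Il6, Il1b, Lif and Il17ra reached the limit for comparison only through the incubated pair, which leaves 3 higher and 1 lower among the 9 members whose means reached it in both groups. Il6, the gene of interleukin 6, was at 9.42 and 9.26 in the treated and the untreated heart, against 2.54 in Id cKO, 2.42 and 2.09 in the Id3-null and Id1-null Id controls and 1.90 in WT, so the incubated pair stood far apart. Its relative Lif, whose protein also signals through STAT3, differed by 2.63, and Il1b, the gene of interleukin 1 beta, by 1.99. The tumour necrosis factor receptor genes Tnfrsf1a (1.17) and Tnfrsf1b (1.27) and the oncostatin M receptor gene Osmr (0.84) rose, and the LIF receptor gene Lifr fell by 0.78. The interleukin 17 receptor gene Il17ra differed by 1.18. Tnf itself did not reach the limit for comparison, with 5.12 and 5.56 in the treated and the untreated heart and 5.02 to 5.08 elsewhere. The list median was 0.62.

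Of 21 measured NF-kB and STAT3 pathway genes (median 0.42), 20 were compared. Of these, 9 were called higher and 0 lower, beside 16.0% and 18.9% of all genes compared. Among the 15 members whose means reached 6 in both groups, 4 were called higher (Socs3, Nfkbia, Bcl3 and Ikbkb) and 0 lower. Socs3, an inhibitor of STAT3 signalling, differed by 2.12, Nfkbia, which holds NF-kB in the cytoplasm, by 1.85, Tnfaip3, a ubiquitin-editing brake on NF-kB, by 1.81, and Nfkbiz, a nuclear IkB protein, by 1.42. Cebpd (1.18), Bcl3 (0.89), Birc3 (0.78), Nfkbie (0.63) and Ikbkb (0.45) followed. The NF-kB subunit genes Rela (7.52 and 7.98 in the treated and the untreated heart, 7.42 to 7.99 elsewhere) and Nfkb2 (7.58 and 8.16, 7.66 to 7.83 elsewhere) were not called. Between treated and untreated hearts, 1 gene of this list was 2-fold apart: Bcl3 was at 5.98 in the treated and 7.07 in the untreated heart, as deposited. Socs3 differed by -0.64 and Lif, of the cytokine list, by -0.91.

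Among 29 other measured acute-phase genes (median 0.45), 10 were compared, and 19 did not reach the limit for comparison. Of the 10 compared, 6 were called higher and 0 lower, beside 16.0% and 18.9% of all genes compared. Among the 7 members whose means reached 6 in both groups, 4 were called higher (57.1%), beside 14.3% of all such genes. Of the 6 called higher, Ptx3 and Cd14 reached the limit only through the incubated pair. Those called were Ptx3 (3.33), the long pentraxin, Mt2 (3.06), a metallothionein, Cd14 (1.95), a lipopolysaccharide co-receptor, C4b (1.85), a complement component, Lbp (1.75), the lipopolysaccharide-binding protein, and Steap4 (0.90). Below the limit for comparison lay Saa1, at 3.04 and 3.28 in the treated and the untreated heart, against 2.84 to 3.01 elsewhere, and Crp, at 4.16 and 4.18, against 3.60 to 3.87 elsewhere. The receptor gene of lipocalin 2, Slc22a17, was at 6.16 and 6.49 in the treated and the untreated heart and 6.33 to 6.58 elsewhere and was not called.

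Of 20 other endothelial adhesion and transmigration genes (median 0.42), 14 were compared. Of these, 7 were called higher and 0 lower, beside 16.0% and 18.9% of all genes compared. All 7 were among the 13 members whose means reached 6 in both groups (53.8%, beside 14.3% of all such genes). The genes called had smaller differences than Sele, Icam1 and Vcam1. They were Cd34 (1.42), Mcam (1.19), Vwf (1.12), the gene of von Willebrand factor, Podxl (1.07), Esam (0.99), Cdh5 (0.67), the gene of VE-cadherin, and F11r (0.61). On the leukocyte side, 8 of 15 measured selectin ligand and integrin genes were compared. Of these, 3 were called higher and 2 lower, beside 16.0% and 18.9% of all genes compared. Those called higher were Cd44 (1.12), Itgb2 (0.73), the beta chain of the integrins that bind ICAM-1, and Itgam (0.48). Glg1 and St3gal4 fell by 0.51 and 0.66. Among the 5 members whose means reached 6 in both groups, 2 were called higher and 2 lower (40.0% each). Of all such genes, 14.3% were called higher and 17.7% lower. The remaining gene called higher reached the limit only through the incubated pair, where it is high. Itga4, the alpha chain of the integrin that binds VCAM-1, was at 5.05 and 4.99 in the treated and the untreated heart and 5.03 to 5.58 elsewhere, too low to be compared. In this list the median was 0.28, beside -0.05 over all genes.

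**Figure D4:**
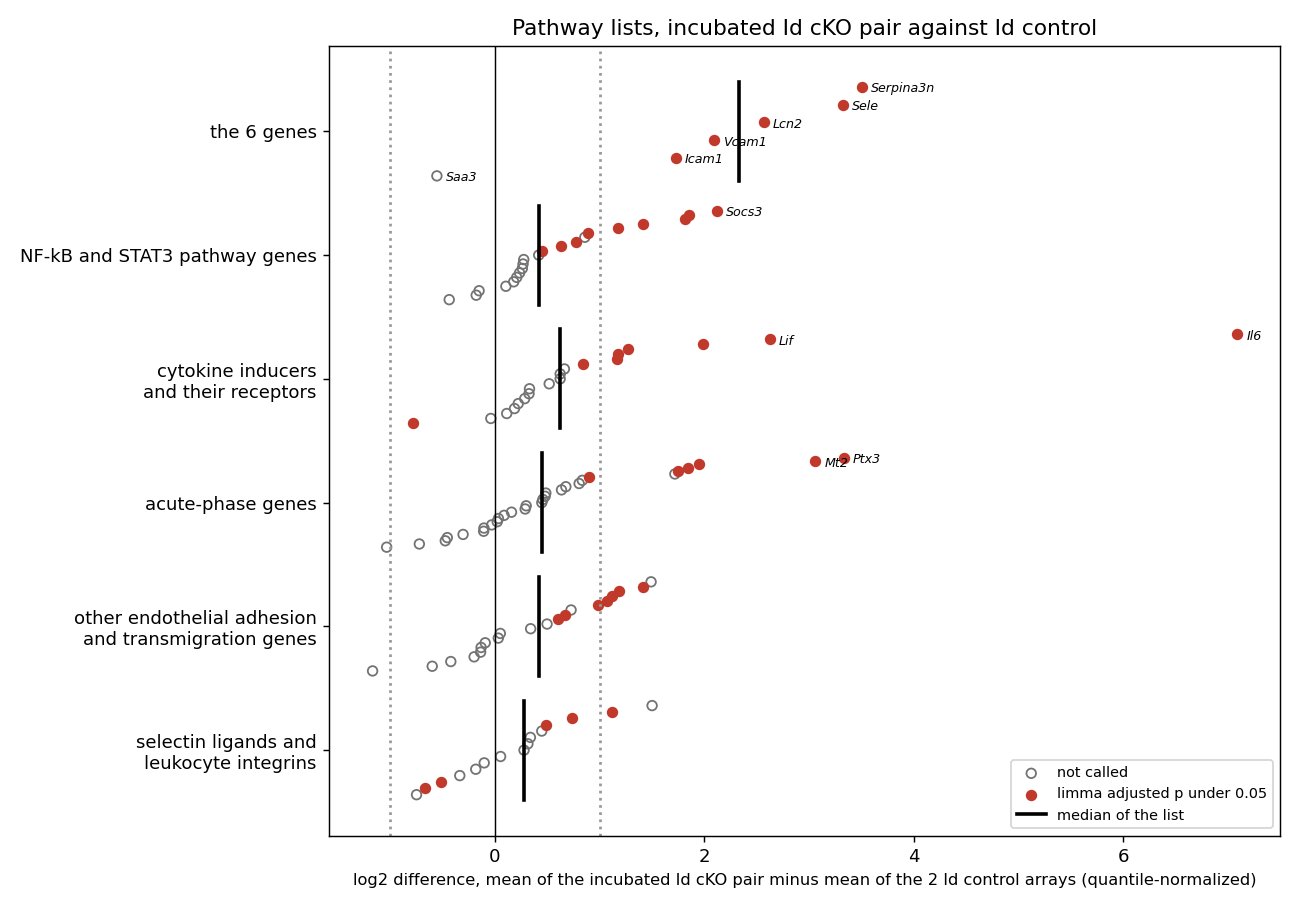
Log2 difference of quantile-normalized levels, incubated Id cKO pair minus Id control (horizontal axis), for each measured gene of the 6 genes and of 5 pathway lists (rows); filled points have a limma adjusted p under 0.05, open points were not called or not compared, bars are list medians and dotted lines mark 2-fold. The median of the 6 genes is 2.33 and those of the 5 lists are 0.28 to 0.62, and Il6 is the point furthest to the right. Some filled points, Sele and Il6 among them, are genes that reached the limit for comparison only through the incubated pair. For these the fill is no test.

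Between Id cKO and Id control, limma called 0 genes of these 6 lists, where it called 2 genes (0.0177%) as higher on the whole array, and by size 1 list gene was 2-fold from both controls, where 1.12% of all genes were: Mcam, an endothelial and pericyte adhesion gene, was at 9.95 in Id cKO and 8.45 in Id control. The NF-kB and STAT3 list had a median of 0.09 there and the acute-phase list -0.11.

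Several cell type markers moved with the incubated pair, and their part in these differences was not tested. The summed level of 10 endothelial markers was 13.11 to 13.13 (log2) on the incubated pair and 12.28 to 12.74 on the other arrays, with 7 of 10 markers above all other arrays. Among the other arrays this sum was highest in the Id cKO heart, at 12.74. Of 5 markers of venous and activated endothelium, 4 lay above all other arrays on the pair (sum 10.52 to 10.95 against 9.60 to 10.16). The 13 macrophage markers summed to 11.80 to 12.17 on the pair and 10.88 to 11.38 elsewhere, with 6 of 13 above all other arrays. In all, 22.2% of the genes compared lay higher on both incubated arrays without overlap.

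Neutrophil markers, of interest since neutrophils store lipocalin 2, were low throughout. All 12 lay below 6 on every array, with Ly6g at 3.88 and 3.49 and Mpo at 4.77 and 4.67 in the treated and the untreated heart, against 3.35 to 3.71 for Ly6g and 4.45 to 5.24 for Mpo elsewhere. Their sum was 8.40 to 8.45 on the pair and 7.82 to 8.09 elsewhere, and 6 of 12, among them S100a8 (5.44 and 5.72 against at most 4.20), were above all other arrays. The share of 22.2% covers only genes whose mean reached 6. No share was counted for genes as low as these markers, so their count is a description only. T and B cell markers, all 8 below 6, summed to 7.63 to 7.83 on the pair and 7.67 to 7.81 elsewhere. Platelet markers were high in the pair (9.16 to 9.70) and in WT (9.43), and 8.22 to 8.52 in the other hearts. Fibroblast markers summed to 13.74 to 13.78 on the pair against 12.03 to 12.96, and cardiomyocyte markers to 15.46 to 15.62 against 15.88 to 16.02. Red cell markers summed to 10.35 to 10.72 on the pair against 8.40 to 9.77, and smooth muscle and pericyte markers to 12.37 to 12.60 against 11.65 to 12.16. WT shared the Eif2s3y pattern of the pair and had Sele at 5.31 and Lcn2 at 6.39. WT also differs from the pair in genotype, date code and incubation, and whether these levels go with the Eif2s3y pattern was not tested.

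**Figure D5:**
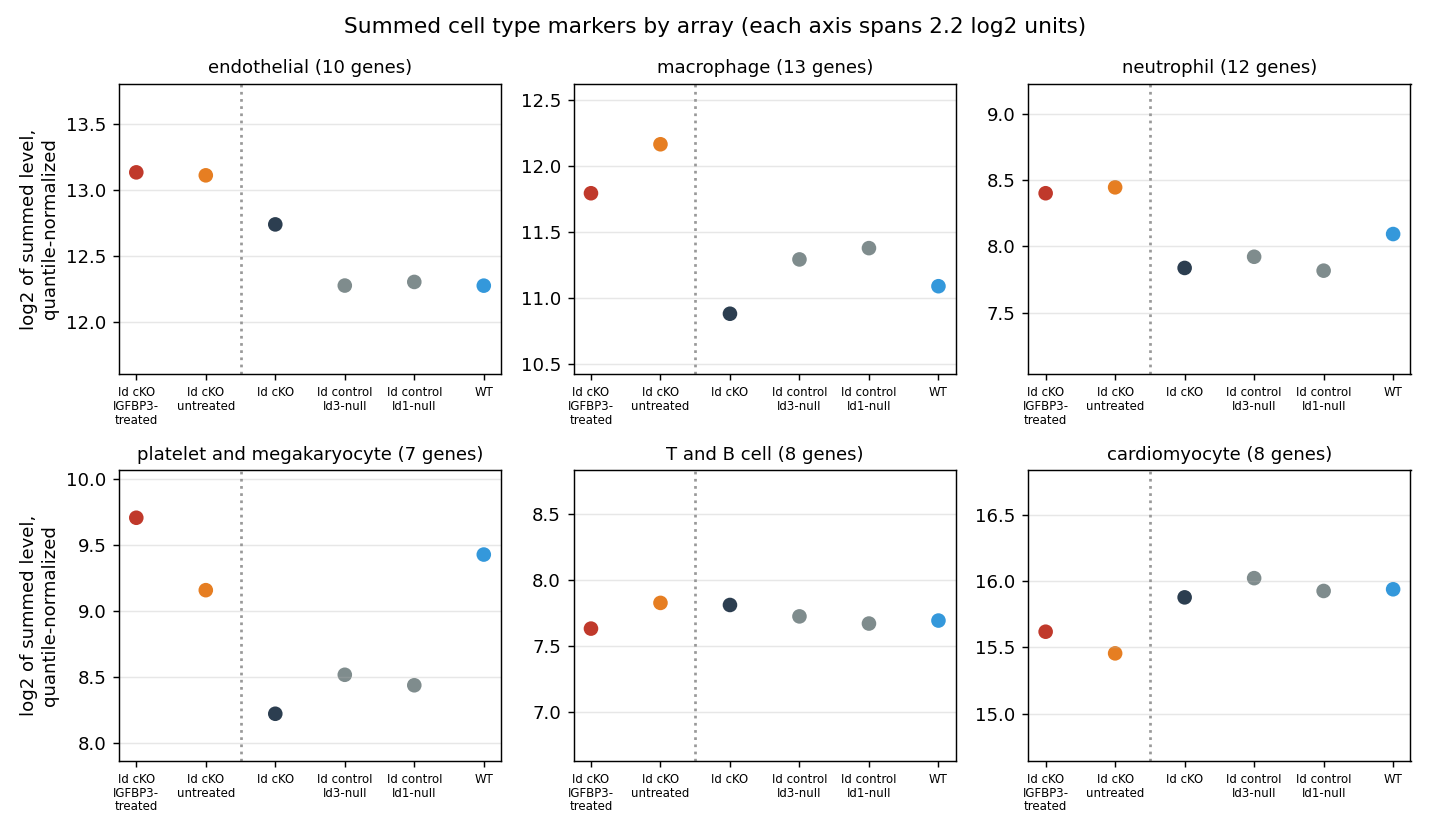
Log2 of the summed quantile-normalized levels of 6 marker lists (vertical axes, each spanning 2.2 log2 units) on the 6 arrays (horizontal axis), 1 point per array; the dotted line parts the incubated pair from the others. Endothelial, macrophage and neutrophil sums are highest on the incubated pair, and the cardiomyocyte sum is lowest there.

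The genes whose pattern over the 6 quantile-normalized arrays was most like that of each of the 6 were sought among 2708 genes with a range of at least 1. The likeness is Pearson's r over 6 arrays, which here rests mostly on the incubated pair standing apart from the rest, and it is given with no test. For Sele these were Cxcl5, Tnfaip3 and Ccl2 (r = 0.9996, 0.9994 and 0.9986), and 29 genes had r over 0.99. Cxcl5, a chemokine of neutrophils, was at 8.51 and 9.49 in the treated and the untreated heart and 4.18 to 4.46 elsewhere. For Icam1 they were Emp3, Plk3 and Cxcl14 (0.996, 0.995 and 0.995), and for Vcam1 Emp3, Il33 and Mctp1 (0.999, 0.998 and 0.996). For Lcn2 they were Maff, Ccl3 and 1700025H01Rik (0.997, 0.995 and 0.994), and for Serpina3n Slc22a4, Thbs1 and Ppp1r14a (0.996, 0.995 and 0.995). Saa3 was least matched, with Ephb1, Frem2 and Bche at 0.975, 0.968 and 0.967 and 0 genes over 0.99.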

How the data were processed

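RNA of 6 mouse heart samples in 5 groups was profiled on 1 array each. The values deposited by the authors are on the log2 scale, for 35557 probe sets on each array, and were made with Affymetrix Expression Console and RMA, per the submitters' processing notes, without a version. The number of arrays limits the precision. Of the probe sets, 21789 carry 1 gene symbol in the platform annotation, 1621 several and 12147 none. The probe set with the highest mean stood for its gene. Quantile normalization and tests used limma 3.58.1 under R 4.3.3, over all arrays in 5 groups, with Benjamini-Hochberg adjustment over all genes compared and a limit of 0.05, and tables and sums used Python 3.11.15. A gene entered a comparison if its higher group mean was 6 or more. Single arrays were compared by size at 2-fold, the fold limit of the design text. limma was tested on simulated data. The genes and lists were chosen with earlier results of these data known. The rule for naming took the 6 genes, list members that were 2-fold apart and otherwise the 4 furthest apart of a list, and the 3 genes of most like pattern; other list genes and markers were named after their values were seen. Alternatives were median centring, cyclic loess, other filters on low values, the mean of probe sets, the limits of the design text and leaving out each Id control array.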

Additional observations from a re-analysis of the deposited data

How the results depend on the processing

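No called value changed sign under the alternatives run. The incubated pair against Id control, a comparison added after seeing the data, kept its calls of Icam1, Vcam1, Lcn2 and Serpina3n under each alternative that allows a test; without 1 Id control array no residual degrees of freedom remain, and their differences were 1.69 to 4.15. In the average of Id cKO and the untreated heart against Id control the adjusted p fell below 0.05 for Lcn2 under median centring (0.0483) and cyclic loess (0.0485), and for Serpina3n under these (0.0487 and 0.0476) and a filter at 8 (0.0441). The other alternatives for single genes moved 21 values by more than the spread of the Id controls and left 340 in place.

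Counts over all genes depended on the filter. With a filter at 8 in place of 6, counts higher and lower by 2-fold were 46 and 27 for Id cKO against Id control (79 and 48 otherwise), 161 and 62 for Id cKO against WT (253 and 111), 7 and 5 for Id control against WT (12 and 11), 6 and 33 for treated against untreated (37 and 60), 176 and 77 for the pair against Id control (277 and 170), 97 and 17 for the 2 incubated arrays against the 4 others (150 and 40), and 296 and 134 for untreated incubated against Id cKO (509 and 352). They were 12 lower for both Id cKO sets (24) and, without overlap, 594 and 828 for the 3 Id cKO arrays (1414 and 1802). limma then called 1760 genes in the pair (3580). With no filter the counts were 87 and 91 for treated against untreated, 2145 and 2966 for the 3 Id cKO arrays, 83 lower for the 2 incubated arrays and 565 lower for untreated incubated against Id cKO, and limma called 6178 in the pair and 1 for Id control against WT (0). Treated against untreated gave 80 higher under median centring, 57 under cyclic loess, and 572 and 504 at 1.5-fold, a limit chosen after seeing the data; Id control against WT gave 7 lower under median centring.

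The limits of the design text, an unadjusted p under 0.001 and 2-fold, passed 58 genes for Id cKO against Id control (limma 2), 13 for Id control against WT, 222 for both Id cKO sets (860) and 643 for the pair. Without 1 Id control array, counts higher and lower were 128 to 173 and 113 to 172 for Id cKO against Id control, 24 to 177 and 26 to 33 for Id control against WT, 73 to 118 and 65 to 95 for both Id cKO sets, and 366 to 446 and 272 to 289 for the pair; fewer arrays must then be passed. No paired analysis was possible because the labels give no replicate numbers, and a block on date code leaves no residual degrees of freedom.

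Single arrays in all groups but Id control limit every comparison, and incubation, date code, array set and animal cannot be told apart. The recount over genes whose means reached 6 in both groups was chosen after seeing the data.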
